A study of Homo sapiens with 6 samples.

Results

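The genes described are those of the general transcription machinery: the subunits of RNA polymerases I, II and III, the Mediator complex, the TATA-binding protein associated factors of TFIID, the other general and elongation factors, and the Integrator complex. They were taken from the table of raw counts by gene symbol, as every row whose symbol begins with POLR, MED, TAF, GTF or INTS followed by a digit, begins with SUPT, or is ELOA, ELOB or ELOC. The rule used names and no measured value. It found 58 of the 5117 genes of the table (1.13%). A list of 141 symbols of this machinery was set beside it, of which the other 83 have no row under those symbols. Of these, POLR1F and POLR1H have rows under older symbols that the rule does not match, and the remaining 81 were not analysed here. Of the 58 genes, 17 are polymerase subunits (34 listed), 13 belong to Mediator (30 listed), 6 to TFIID (17 listed), 14 to the other factors (44 listed) and 8 to Integrator (16 listed).

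A gene is transcribed when a polymerase is brought to its promoter by general transcription factors. For RNA polymerase II, which makes messenger RNA, TFIID recognises the core promoter, TFIIA stabilises it there, TFIIF escorts the polymerase and TFIIH opens the DNA. Mediator carries signals from activators bound at enhancers to this assembly, elongation factors and histone chaperones help the enzyme move through chromatin, and Integrator cuts the nascent RNA of small nuclear RNA genes and of paused polymerases. RNA polymerase I makes the large ribosomal RNA and RNA polymerase III makes transfer RNA and other small RNAs.

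RNA was measured by sequencing of poly(A) RNA in HMC3, an established human cell line that the labels call microglial. The cells had the WT genotype and were treated with CM that contained C1s (C1s-CM, 3 libraries) or with CM without C1s (control CM, 3 libraries, titled FLAG), and CM is not spelled out in the labels. C1s is a protease that acts at the start of the classical pathway of complement, and the comparison asks which genes of these cells differ after treatment with it. All libraries share the cell line and genotype, the labels give no time or dose, and separate cultures are not mentioned, so a p-value here reflects the spread among 3 libraries per treatment, possibly a technical one.

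The table holds genes that had passed the authors' own test on the same libraries, so 99.4% of its 5116 tested genes were called again by edgeR's quasi-likelihood test at an adjusted p under 0.05, and a call for one of the 58 genes is not independent evidence that it changed. The counts of the table summed to between 12730766 and 14961744 per library, which is a part of each library and not its depth. Levels are given as CPM, which here relate each count to the TMM-scaled total of the table, and where genes are compared with each other as RPKM, which are CPM divided by the transcript length in kilobases. None of the 10 microglia markers listed (AIF1, CX3CR1, P2RY12, TMEM119 and others) has a row, so the label could not be checked on them, nor has any of the 8 glial and neural or the 7 lymphocyte and endothelial markers. Of 8 fibroblast and pericyte markers, COL1A1, PDGFRB and THY1 have a row, with a summed level of 5010 to 5140 CPM in C1s-CM and 4833 to 4931 CPM in control CM. The 13 mitochondrial messenger RNAs, read as a sign of RNA quality, were all higher in C1s-CM, with a summed level of 16795 to 17304 against 14057 to 14265 CPM. Their median log2 fold change was 0.27, and 0.36 with the GC and length offsets described below, where all 13 were still called higher. With the library totals described below, 10 of the 13 were called higher. What part either list has in the results was not tested.

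The differences were small, under 1.5-fold for 55 of the 58 genes, and most complexes held both genes that rose and genes that fell. In edgeR's test 33 of the 58 genes were higher in C1s-CM and 25 lower, where 50.9% of all tested genes were higher and 48.5% lower, and none reached a 2-fold difference. Polymerase subunits (13 higher, 4 lower) and Mediator subunits (9 higher, 4 lower) were more often higher, and TFIID (1 higher, 5 lower) and Integrator (3 higher, 5 lower) more often lower. The other factors divided into 7 higher and 7 lower. GC content, the share of G and C bases in a transcript, had a median of 55.9% in polymerase subunits and 54.5% in Mediator. It was 39.9% in TFIID, 49.0% in the other factors and 45.4% in Integrator, beside 49.3% in all tested genes. What part it has in these directions was not tested. The median log2 fold change was 0.19 for the polymerase subunits, 0.18 for Mediator, -0.29 for TFIID, -0.08 for the other factors and -0.36 for Integrator, beside 0.15 for the 58 genes and 0.08 for all tested genes. The libraries of the treatments did not overlap for 57 of the 58 genes, beside 97.2% of all tested genes, and MED9 was the exception. In RNA from a whole culture, fewer cells of one kind and less RNA per cell cannot be told apart.

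The number of calls and some directions changed with scaling and with adjustment for GC content and transcript length, and the cause was not tested. In place of TMM, each library was also scaled only by its summed counts in the table, called library totals below and not its depth. The median log2 fold change of all genes was then lower by 0.13. Of the 58 genes 16 were higher and 25 lower, beside 26.1% and 49.2% (75.3% in either direction) of all tested genes. By group the numbers higher and lower were then 6 and 4 for polymerase subunits, 3 and 4 for Mediator, 1 and 5 for TFIID, 4 and 7 for the other factors and 2 and 5 for Integrator. The 17 genes that lost their call had all been higher, among them POLR1A, POLR1D, POLR2A, POLR2C, POLR2H and POLR2J of the polymerases, MED9, MED12, MED15, MED24, MED27 and MED29 of Mediator, and GTF2F1, GTF3C5, TAF6L and INTS5. The share higher among the called members was then 39.0% in place of 56.9%, and for all genes 34.7% in place of 51.2%. When each gene was instead set against table genes of like transcript GC content and length, by offsets for each library, 13 of the 58 genes (22.4%) passed the test, 10 higher and 3 lower, beside 25.6% of all tested genes, 14.9% higher and 10.7% lower. The direction stayed the same for 31 genes, and the log2 fold change with these offsets is given beside each gene below.

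**Figure D1:**
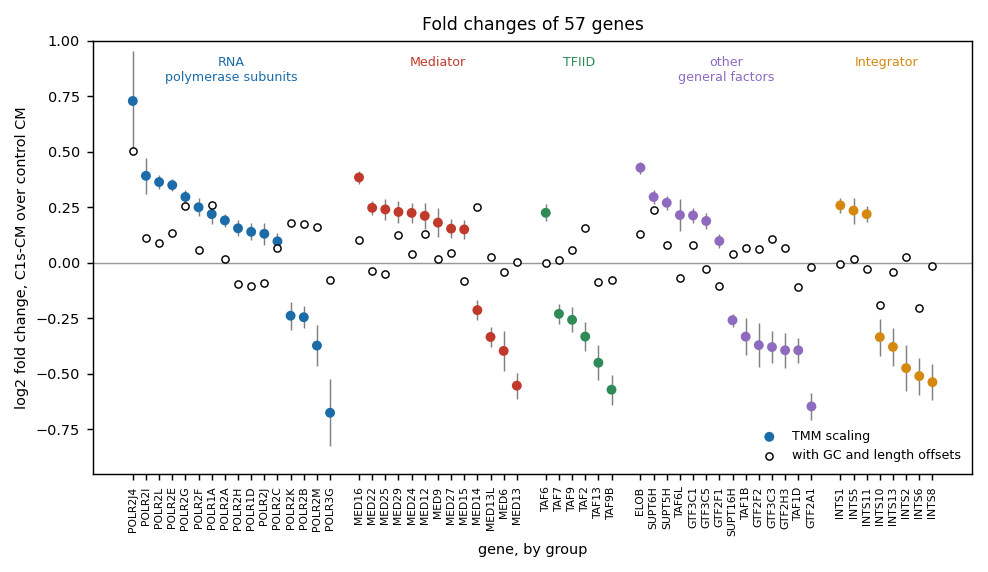
Log2 fold change of 57 of the 58 genes, C1s-CM over control CM, by group along the x axis. Filled points are TMM-scaled values with bars of 1 SE, and open circles are the values with GC and length offsets, which lie nearer to 0 for most genes: the polymerase subunit median moves from 0.19 to 0.09 and the Integrator median from -0.36 to -0.02.

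Among the polymerase subunits, the rises with the smallest p were those of POLR2E, POLR2L and POLR2G. POLR2E, a subunit that all nuclear polymerases share, had 757, 737 and 727 CPM in C1s-CM and 603, 570.4 and 569 CPM in control CM. POLR2L, a small shared subunit, had 354, 381 and 362 CPM against 292, 281 and 281 CPM. POLR2G, which with POLR2D forms the stalk of RNA polymerase II, had 285, 304 and 299 CPM against 249, 232 and 242 CPM. For each of these genes the lowest C1s-CM library lay above the highest control library. Their log2 fold changes were 0.35 ± 0.03 (SE, adjusted p = 1.94e-10), 0.36 ± 0.03 (adjusted p = 4.61e-10) and 0.30 ± 0.03 (adjusted p = 2.47e-08) in edgeR. With GC and length offsets they were 0.13, 0.09 and 0.26, each still past the threshold. On GRCh38 POLR2E lies on chromosome 19 (1086579 to 1095380, minus strand), POLR2L on chromosome 11 (837356 to 842545, minus strand) and POLR2G on chromosome 11 (62761544 to 62766710, plus strand), and coordinates here span the whole gene.

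The catalytic core of RNA polymerase II divided. POLR2A, the largest subunit, whose tail of repeats is phosphorylated as transcription proceeds, had 353, 332 and 333 CPM in C1s-CM and 300.2, 293 and 299 CPM in control CM, a log2 fold change of 0.19 ± 0.03 (SE, adjusted p = 4.27e-06, edgeR). POLR2B, the subunit that closes the active site opposite POLR2A, had 61.4, 65.1 and 66.9 CPM against 74.9, 74.2 and 79.9 CPM and fell by 0.24 ± 0.05 (adjusted p = 9.59e-05, edgeR). Neither gene's treatments overlapped. With offsets POLR2B turned to 0.18 and passed the test in the other direction (adjusted p = 0.0105, edgeR), but not with its longest transcript (0.12, adjusted p = 0.0718), and POLR2A was at 0.02. Both subunits are present once in the enzyme, and the ratio of their counts was 5.76, 5.10 and 4.98 in the C1s-CM libraries and 4.01, 3.94 and 3.74 in the control libraries. POLR2A lies on chromosome 17 (7484366 to 7514616, plus strand) and POLR2B on chromosome 4 (56977722 to 57031168, plus strand).

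The other genes of the polymerases that were lower were few. POLR2K, a small zinc-binding subunit shared by the polymerases, had 40.4, 42.0 and 36.7 CPM in C1s-CM and 46.7, 45.1 and 48.7 CPM in control CM (-0.24 ± 0.06, SE). POLR2M, named for its place in a form of RNA polymerase II that needs Mediator to start, had 16.8, 17.4 and 14.4 CPM against 19.3, 22.4 and 21.2 CPM (-0.37 ± 0.09). POLR3G, which takes part in the trimer of RNA polymerase III that acts at the start of transcription, was among the lowest of all 58 genes, with 3.81, 3.93 and 4.41 CPM against 6.37, 6.37 and 6.64 CPM, and had the largest fall (-0.68 ± 0.15, adjusted p = 2.22e-04, edgeR). In each of these genes the highest C1s-CM library lay below the lowest control library. With offsets POLR2K turned to 0.18 and passed the test, though not with its longest transcript (0.14, adjusted p = 0.0852, edgeR), POLR2M turned to 0.16 without passing, and POLR3G was at -0.08. POLR2M shares 33.0% of its transcript with the readthrough gene GCOM1 on the same strand, so its counts are uncertain.

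The other polymerase genes described were higher. All 5 subunits shared by RNA polymerases I, II and III have a row, and beside POLR2E, POLR2L and POLR2K these are POLR2F (0.25 ± 0.04, SE) and POLR2H (0.16 ± 0.04). Of the RNA polymerase I genes with a POLR symbol, the largest subunit POLR1A (0.22 ± 0.04) and POLR1D, which is shared with RNA polymerase III (0.14 ± 0.04), have a row, and 2 others are given with the partners below under older symbols. The catalytic subunits of RNA polymerase III, POLR3A and POLR3B, have no row. Of the RNA polymerase II genes, POLR2I rose by 0.39 ± 0.08, POLR2J by 0.13 ± 0.05 and POLR2C by 0.10 ± 0.04 on the log2 scale. TBCB on the other strand covers 45.7% of the POLR2I transcript, so its counts are uncertain. POLR1A kept its size with offsets (0.26, adjusted p = 5.12e-05, edgeR), whereas POLR1D (-0.11) and POLR2H (-0.10) then passed the test as lower, and POLR2J (-0.09) turned without passing. POLR2I (0.11), POLR2C (0.07) and POLR2F (0.06) stayed above 0 without passing. POLR1D was instead called higher when the offsets used its longest transcript (0.20, adjusted p = 2.51e-04, edgeR).

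POLR2J4 is the one member that is not annotated as protein-coding, a transcribed pseudogene of the POLR2J family, and it had the largest fitted rise, with offsets 0.50 and not past the threshold. It held 54, 58 and 49 counts in C1s-CM and 17, 42 and 39 in control CM, a log2 fold change of 0.73 ± 0.23 (SE, adjusted p = 0.00392, edgeR). The control library with 17 counts set much of that size, since without control CM replicate 1 the log2 fold change of POLR2J4 was 0.46 (adjusted p = 0.0384, edgeR). Near-identical POLR2J copies make both POLR2J and POLR2J4 counts uncertain. POLR2J was no longer called without C1s-CM replicate 1 (0.10, adjusted p = 0.0703, edgeR). POLR2C was not called without C1s-CM replicate 2 (0.06, adjusted p = 0.128, edgeR). DESeq2's Wald test called neither (adjusted p = 0.0643 for POLR2J and 0.0749 for POLR2C), and POLR2C was at -0.03 with library totals.

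With offsets, polymerase subunits held 8 of the 13 calls among the 58 genes, 8 of 17 (47.1%) against 5 of the other 41 genes (12.2%) and 25.6% of all tested genes. With longest-transcript offsets they held 6 of 15. That is 35.3% of polymerase subunits against 22.0% of the other 41 genes and 27.5% of all tested genes. The difference between these shares was not tested. Higher with representative transcripts were POLR1A, POLR2B, POLR2E, POLR2G, POLR2K and POLR2L, and lower were POLR1D and POLR2H. Per kilobase, POLR2L (319 ± 7.05 RPKM in control CM, SD, n = 3), POLR2G (291 ± 10.6 RPKM) and POLR2E (205 ± 6.71 RPKM) were the most abundant polymerase genes, and POLR3G (1.97 ± 0.0485 RPKM) and POLR2J4 (1.63 ± 0.632 RPKM) the least. The largest subunits had lower RPKM than the small ones, with 44.0 ± 0.623 for POLR2A, 20.4 ± 0.838 for POLR2B and 6.44 ± 0.179 for POLR1A.

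**Figure D2:**
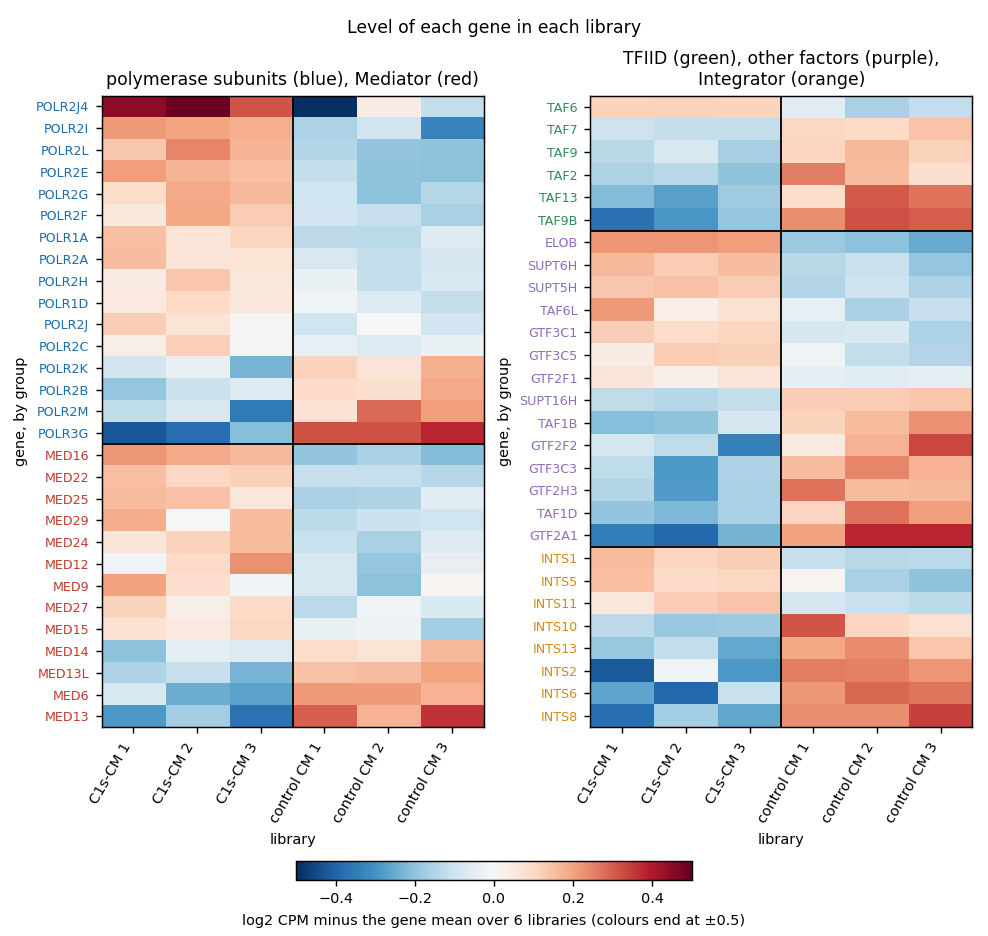
Level of 57 of the 58 genes in each of the 6 libraries, as log2 CPM minus the gene's mean over the libraries, red above and blue below the mean, with genes on the y axis ordered by group and fold change. The colour changes at the line between C1s-CM and control CM in nearly every row, and POLR2J4 is the row in which libraries of 1 treatment differ most, with 1.29 CPM in control CM replicate 1 and 2.97 CPM in control CM replicate 2.

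In Mediator, the tail module, which many activators contact, was higher in its 4 measured genes, and the kinase module divided. The median transcript GC content of these 4 tail genes was 62.9%, beside 54.5% for Mediator. MED16, a tail subunit, had 290.4, 284 and 280.0 CPM in C1s-CM and 217, 223 and 214 CPM in control CM, the largest rise of the complex (0.38 ± 0.03, SE, adjusted p = 1.17e-10, edgeR). MED25, whose activator-binding domain is a target of viral and cellular activators, had 89.8, 89.2 and 83.7 CPM against 72.0, 72.6 and 77.6 CPM (0.24 ± 0.05). MED24, a tail subunit that interacts with MED16 and MED23, had 95.4, 99.1 and 102 CPM against 84.6, 81.6 and 87.5 CPM (0.22 ± 0.04). The treatments did not overlap for any of these genes. MED15, the tail subunit bound by the sterol regulator SREBP, completed the 4 of 5 listed tail genes with a row, all 4 higher (0.15 ± 0.04 for MED15). With offsets MED16 remained higher (0.11, adjusted p = 0.0063, edgeR), MED24 was at 0.04, and MED15 (-0.08) and MED25 (-0.05) turned without passing. With library totals MED16 and MED25 were still called, and MED15 (0.02) and MED24 (0.10) were not.

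The kinase module docks on Mediator through MED13 or its paralog MED13L and holds MED12, cyclin C and a cyclin-dependent kinase. MED13 had 48.6, 52.5 and 45.9 CPM in C1s-CM and 72.8, 66.8 and 76.2 CPM in control CM, the largest fall of the complex (-0.55 ± 0.06, SE, adjusted p = 1.26e-08, edgeR). MED13L had 70.7, 72.5 and 66.9 CPM against 87.1, 87.8 and 90.0 CPM (-0.33 ± 0.05), so that both paralogs were lower in every C1s-CM library. MED12, which activates the kinase, was higher by 0.21 ± 0.06, with 65.2 to 77.2 CPM against 57.6 to 63.9 CPM. The count ratio of MED12 to MED13 was 1.34, 1.34 and 1.68 in C1s-CM and 0.854, 0.862 and 0.839 in control CM. With offsets MED13 and MED13L stood at 0.0044 and 0.03, and MED12 at 0.13, none of them past the threshold. Their partners CDK8 (-0.66) and CCNC (-0.40), which the symbol rule leaves out, were also lower. With offsets CDK8 was still called lower (-0.43, adjusted p = 0.022, edgeR) and CCNC was at 0.03, not past the threshold.

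MED14, the backbone that joins the head, middle and tail modules, had 89.2, 99.6 and 98.3 CPM in C1s-CM and 109.7, 108 and 115 CPM in control CM and had a log2 fold change of -0.21 ± 0.05 (SE, adjusted p = 1.28e-04, edgeR). With offsets MED14 was instead higher by 0.25 (adjusted p = 1.74e-04, edgeR), and its longest transcript gave 0.24. In the head module MED22 had 202, 195 and 197 CPM against 167, 168 and 165 CPM (0.25 ± 0.03), and MED6, among the most conserved subunits, had 17.1, 15.2 and 15.0 CPM against 20.9, 21.0 and 20.3 CPM (-0.40 ± 0.09). Both separated the treatments, in opposite directions. With offsets MED22 was at -0.04 and MED6 at -0.04, and neither passed, but MED22 was called higher with its longest transcript (0.09, adjusted p = 0.0283, edgeR). The middle subunit MED9 (0.18 ± 0.07, adjusted p = 0.0118, edgeR) had overlapping libraries, 45.0 to 52.1 CPM against 39.4 to 45.8 CPM. MED9 was not called without C1s-CM replicate 1 (0.12, adjusted p = 0.0783, edgeR) or without control CM replicate 2 (0.13, adjusted p = 0.0789). MED27 and MED29 were higher, by 0.15 ± 0.04 and 0.23 ± 0.05. With offsets MED9 was at 0.02, MED27 at 0.04 and MED29 at 0.13, none of them past the threshold.

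On GRCh38 MED16 lies on chromosome 19 (867630 to 893218, minus strand), MED14 on chromosome X (40648306 to 40735858, minus strand), MED13 on chromosome 17 (61942605 to 62065282, minus strand) and MED12 on chromosome X (71118556 to 71142454, plus strand). Only 1 of 9 listed middle-module genes has a row, and MED1, MED23 and MED26 have none. Mediator counts were 2 higher (MED14 and MED16) and 0 lower with offsets, where at an unadjusted p under 0.05 these were 4 and 0 in edgeR.

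TFIID subunits were lower with a single exception. TAF9B, a paralog of TAF9, had 25.9, 27.4 and 29.4 CPM in C1s-CM and 39.4, 42.0 and 41.4 CPM in control CM (-0.57 ± 0.07, SE, adjusted p = 6.80e-08, edgeR). TAF13, a histone-fold subunit that pairs with TAF11, had 22.4, 21.6 and 23.1 CPM against 27.7, 32.3 and 31.4 CPM (-0.45 ± 0.08). TAF2, which contacts promoter DNA at the initiator, had 35.1, 35.6 and 34.2 CPM against 46.8, 43.8 and 41.6 CPM (-0.33 ± 0.06). These genes were lower in all 3 C1s-CM libraries than in any control library. TAF7, which binds TAF1, had 75.5, 74.7 and 74.8 CPM against 87.2, 86.9 and 89.7 CPM (-0.23 ± 0.04), and TAF9, a histone-fold subunit that pairs with TAF6, had 43.6, 45.4 and 42.7 CPM against 51.7, 53.6 and 52.0 CPM (-0.26 ± 0.06).

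TAF6, the partner of TAF9 in the histone-fold pair, was the exception, with 138, 138 and 138 CPM in C1s-CM and 123, 114 and 117 CPM in control CM (0.23 ± 0.04, SE, adjusted p = 7.70e-06, edgeR). The count ratio of TAF6 to TAF9 rose from 2.26 ± 0.124 (SD, n = 3) to 3.15 ± 0.0954, and that of TAF9 to TAF9B from 1.28 ± 0.0287 to 1.60 ± 0.125, without overlap. With offsets no TFIID gene passed the test: TAF2 (0.16), TAF7 (0.01) and TAF9 (0.06) turned, TAF13 (-0.09) and TAF9B (-0.08) did not, and TAF6 was at 0.00. At an unadjusted p under 0.05 TAF2 passed with offsets, and with longest transcripts TAF9 was called lower (-0.20). TAF6 lies on chromosome 7 (100107070 to 100119841, minus strand), where AP4M1 on the other strand covers 36.4% of its transcript, TAF9 on chromosome 5 (69364743 to 69370013, minus strand), where it shares 6.99% of its transcript with AK6, and TAF9B on chromosome X (78129748 to 78139706, minus strand). Whether counting used strand is not given in the sources used here. Smaller overlaps with other genes cover 18.8% of the TAF6L, 15.9% of the MED6 and 12.4% of the POLR2L transcript. TAF1, TAF4, TAF5 and the TATA-binding protein gene TBP have no row.

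The histone-fold pair also differed in base composition, which shows in the coding sequence. The lines below give codons 101 to 130 of each coding sequence, 5′ to 3′ on the coding strand, from GENCODE 29 on GRCh38, with G or C at the last base of a codon in capitals. TAF6 (chr7:100113623-100113712, minus strand) has 24 such codons of 30 and TAF9 (chr5:69365348-69365437, minus strand) has 12, each within 1 exon.
TAF6: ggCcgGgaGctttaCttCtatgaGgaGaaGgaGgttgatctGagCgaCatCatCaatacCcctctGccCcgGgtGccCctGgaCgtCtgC
TAF9: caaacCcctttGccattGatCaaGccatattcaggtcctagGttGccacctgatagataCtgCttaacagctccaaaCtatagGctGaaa

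Among the other general factors of RNA polymerase II, the initiation factors divided. GTF2A1, GTF2H3 and GTF2F2 were lower and GTF2F1 was higher, as was ERCC2 of TFIIH, given with the partners below. GTF2A1, which encodes the precursor of the large TFIIA subunits, had 43.8, 42.3 and 47.1 CPM in C1s-CM and 63.7, 72.3 and 72.3 CPM in control CM. Its log2 fold change of -0.65 ± 0.06 (SE, adjusted p = 1.37e-09, edgeR) had the smallest p among the 25 genes that fell. GTF2H3, a core subunit of TFIIH, fell by 0.39 ± 0.08. TFIIF, which has 2 subunits, divided: GTF2F1 had 179, 175 and 179.5 CPM against 166, 166 and 166 CPM (0.10 ± 0.03), and GTF2F2 had 15.9, 15.5 and 13.4 CPM against 17.4, 19.0 and 21.3 CPM (-0.37 ± 0.10). The ratio of GTF2F1 to GTF2F2 counts was 11.99 ± 1.25 in C1s-CM and 8.68 ± 0.860 in control CM (SD, n = 3). With offsets GTF2A1 was at -0.02, GTF2H3 at 0.07 and GTF2F2 at 0.06, none of them past the threshold, and GTF2F1 passed it as lower (-0.10, adjusted p = 0.0136, edgeR). GTF2F1 was also at -0.03 with library totals, so its direction depends on both choices. GTF2B, GTF2E1 and GTF2E2 have no row.

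The TFIIF pair differs in the same way within codons 101 to 130, where GTF2F1 (chr19:6387496-6389469, minus strand) has 25 of 30 codons ending in G or C (capitals) and GTF2F2 (chr13:45151828-45252874, plus strand) has 10. Introns inside these coordinates are left out.
GTF2F1: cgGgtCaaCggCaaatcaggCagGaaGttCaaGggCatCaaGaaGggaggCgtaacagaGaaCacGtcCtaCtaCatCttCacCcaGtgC
GTF2F2: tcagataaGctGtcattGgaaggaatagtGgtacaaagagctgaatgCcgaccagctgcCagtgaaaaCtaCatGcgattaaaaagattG

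Genes that act after initiation included the largest rise of a protein-coding gene of the 58. ELOB encodes Elongin B, which serves both an elongation factor and ubiquitin ligases. It had 505, 507 and 502 CPM in C1s-CM and 382, 378 and 365 CPM in control CM, so that every C1s-CM library lay above every control library. The log2 fold change was 0.43 ± 0.03 (SE, adjusted p = 4.12e-12, edgeR), and with offsets 0.13 (adjusted p = 2.49e-04). ELOB was also the most abundant of the 58 genes per kilobase, with 509 ± 2.24 RPKM in C1s-CM and 379 ± 8.70 RPKM in control CM (SD, n = 3). It lies on chromosome 16 (2771414 to 2777297, minus strand), where SRRM2 on the other strand covers 19.2% of its transcript. ELOA and ELOC have no row.

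SUPT6H, a histone chaperone that travels with RNA polymerase II, had 225, 220.1 and 224 CPM in C1s-CM and 183, 186 and 176 CPM in control CM (0.30 ± 0.03, SE, adjusted p = 1.65e-08, edgeR). SUPT5H, the large subunit of the pausing and elongation factor DSIF, had 199, 201 and 197 CPM against 164, 169 and 163 CPM (0.27 ± 0.03). SUPT16H, a subunit of the histone chaperone FACT, moved the other way, with 198, 196 and 199.6 CPM against 236, 236 and 238 CPM (-0.26 ± 0.03, adjusted p = 4.68e-08, edgeR). The libraries of each gene were tightly grouped and did not overlap between treatments. SUPT6H counts were 1.14, 1.12 and 1.12 times those of SUPT16H in C1s-CM and 0.775, 0.789 and 0.739 times in control CM. With offsets SUPT6H kept most of its size (0.24, adjusted p = 3.87e-06, edgeR), SUPT5H was at 0.08 and SUPT16H turned to 0.04, neither of them past the threshold. TAF6L, a TAF6 paralog of the coactivator SAGA, was higher by 0.21 ± 0.07 and turned to -0.07 with offsets.

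Among factors of the other polymerases, the measured genes of SL1 were lower and those of TFIIIC divided. Both genes with a row from SL1, the promoter selectivity factor of RNA polymerase I, were lower: TAF1D had 44.4, 43.5 and 45.5 CPM in C1s-CM and 54.9, 61.4 and 58.8 CPM in control CM (-0.39 ± 0.06, SE, adjusted p = 1.17e-06, edgeR), and TAF1B fell by 0.33 ± 0.08. TFIIIC, which recognises the internal promoter of transfer RNA genes, held GTF3C1 (160.3, 157 and 159 CPM against 139, 139.7 and 132 CPM, 0.21 ± 0.04), GTF3C5 (0.19 ± 0.04) and GTF3C3 (28.4, 25.4 and 27.8 CPM against 34.5, 36.7 and 34.9 CPM, -0.38 ± 0.07). GTF3C1 and GTF3C5 were thus higher and GTF3C3 lower, each without overlap. The ratio of GTF3C1 to GTF3C3 counts was 5.84 ± 0.296 in C1s-CM and 3.87 ± 0.128 in control CM (SD, n = 3). With offsets none of these genes passed: TAF1B (0.07), GTF3C3 (0.11) and GTF3C5 (-0.03) turned, TAF1D was at -0.11 (0.15 and called higher with its longest transcript) and GTF3C1 at 0.08.

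Integrator divided along its measured subunits. INTS1, its largest subunit, had 154, 149 and 150.5 CPM in C1s-CM and 128, 126 and 126 CPM in control CM (0.26 ± 0.04, SE, adjusted p = 4.55e-07, edgeR). INTS11, the endonuclease, had 155, 163 and 165 CPM against 141, 139 and 137 CPM (0.22 ± 0.04), and INTS5 had 59.5, 57.3 and 57.7 CPM against 54.0, 47.8 and 46.7 CPM (0.24 ± 0.06). These 3 genes were higher in every C1s-CM library than in any control library.

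The other 5 Integrator genes were lower. INTS8, which helps to recruit a protein phosphatase to the complex, had 18.8, 21.7 and 20.4 CPM in C1s-CM and 28.7, 28.7 and 31.0 CPM in control CM (-0.54 ± 0.08, SE, adjusted p = 1.60e-06, edgeR). INTS6, another contact of that phosphatase, had 19.3, 17.6 and 21.4 CPM against 26.8, 28.2 and 27.8 CPM (-0.51 ± 0.08). INTS2 had 11.1, 14.6 and 12.1 CPM against 17.7, 17.6 and 17.3 CPM (-0.47 ± 0.10), and INTS13, of the module formed with INTS10 and INTS14, had 17.2, 18.0 and 16.5 CPM against 22.4, 23.1 and 21.6 CPM (-0.38 ± 0.08). The treatments did not overlap for any of them, and INTS2 ranged from 11.1 to 14.6 CPM within C1s-CM. INTS10 fell by 0.33 ± 0.08. Exons of CCNE2 on the other strand cover 35.2% of the INTS8 transcript. With offsets no Integrator gene passed (INTS6 and INTS10 did at an unadjusted p under 0.05), and INTS1 (-0.01), INTS11 (-0.03) and INTS2 (0.03) turned, while INTS5 (0.02), INTS8 (-0.02) and INTS13 (-0.04) did not. The most negative values were then those of INTS6 (-0.20, adjusted p = 0.0668) and INTS10 (-0.19, adjusted p = 0.0915, edgeR), and with longest transcripts INTS10 was called lower (-0.26) while INTS6 was at 0.13. The subunits INTS4 and INTS9, which hold the endonuclease, have no row.

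The ratio of counts of genes whose proteins work together differed between the treatments in several complexes. Ratios of counts within a library need no scaling between libraries, but a difference that follows GC content or length does not cancel in them. The pairs below were chosen after the values were seen, so their ratios are a description with no test. The INTS1 to INTS2 ratio was 12.2 ± 1.87 in C1s-CM and 7.22 ± 0.0847 in control CM (SD, n = 3), a quotient of 1.69. The MED12 to MED13 ratio had the largest quotient of the 11 pairs (1.71), and the quotient was 1.52 for POLR2L over POLR2K, 1.51 for GTF3C1 over GTF3C3 and 1.35 for POLR2A over POLR2B. The MED13 to MED13L ratio was lower in C1s-CM (0.699 ± 0.0218) than in control CM (0.815 ± 0.0465). For CCNC over MED13 the treatments overlapped, with 0.370 ± 0.0378 in C1s-CM and 0.330 ± 0.00546 in control CM. With GC and length offsets the quotient of MED12 over MED13 was 1.09, of INTS1 over INTS2 0.977, of GTF3C1 over GTF3C3 0.983, of POLR2L over POLR2K 0.939 and of POLR2A over POLR2B 0.895. The SUPT6H over SUPT16H quotient went from 1.47 to 1.15.

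**Figure D3:**
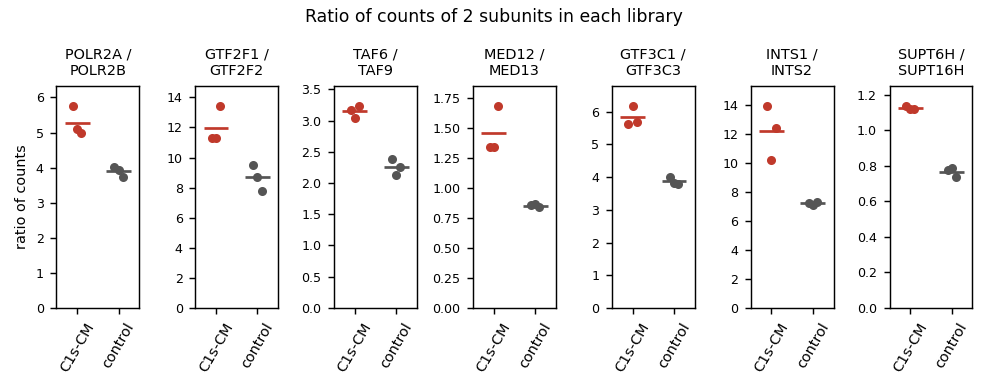
Ratio of the counts of 2 genes in each library, 1 panel per pair, with C1s-CM in red, control CM in grey and bars at the mean of 3 libraries; each y axis starts at 0. Each of the 7 panels sets a gene called higher over a gene called lower, so the direction follows from the choice of pairs. The ratios are higher in all 3 C1s-CM libraries in each panel, as for MED12 over MED13 with a mean of 1.45 against 0.852.

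The genes that rose and the genes that fell differed without overlap in the base composition of their transcripts. The 33 genes that rose had representative transcripts of 50.5% (POLR2G) to 65.4% (MED25) GC, median 58.4%. The 25 genes that fell had 34.3% (POLR3G) to 47.1% (INTS10), median 39.8%. No gene of one direction lay in the range of the other, across all 5 groups. Spearman's rho between GC content and log2 fold change over the 58 genes was 0.82. With offsets it was -0.10, but the offsets were fitted to this same GC content, so a value near 0 follows from the fit. All points come from the same 6 libraries. The whole table had the same relation (rho 0.85 over 5112 genes): of its 2503 genes at or above the GC content of POLR2G 98.4% had a log2 fold change above 0, of its 2425 genes at or below that of INTS10 3.42% did, and of the 184 genes between them 47.3%. The division by GC content was thus shared with the rest of the table.

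**Figure D4:**
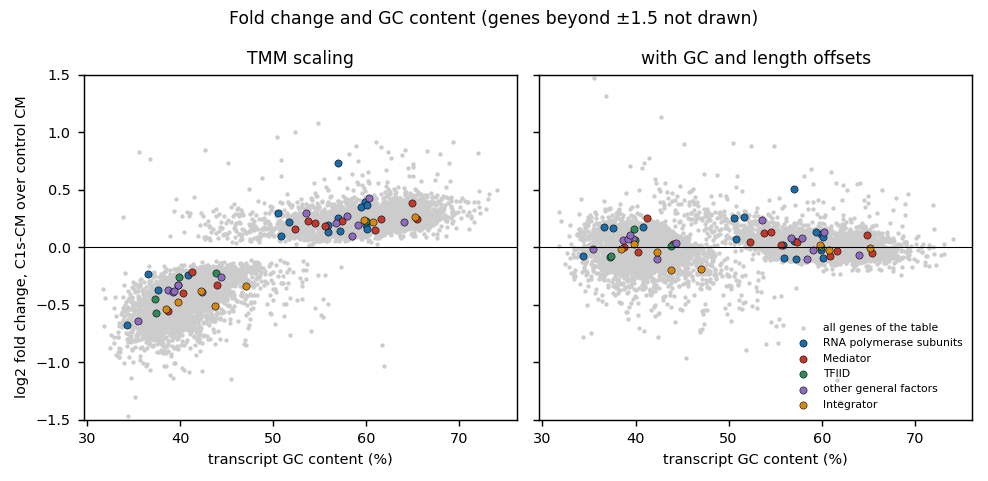
Log2 fold change against GC content of the transcript, with TMM scaling (left) and with GC and length offsets (right); grey points are all genes of the table and coloured points the 58 genes by group. At left the members above 50.5% GC lie above 0 and those below 47.1% lie below 0. At right both sets lie around 0, which follows from offsets that were fitted to GC content.

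The composition also differed in the coding sequence and the 3′ UTR, and less at the promoter. At the last base of codons, where most changes keep the amino acid, G or C made up a median of 72.7% (47.4% to 88.1%, n = 31) in genes that rose and 37.9% (26.6% to 51.0%, n = 25) in genes that fell. In 3′ UTRs the medians were 55.7% (n = 28) and 32.7% (n = 25). In promoters, taken from 250 bases before to 50 after the start for the 43 members with a sequence, they were 61.5% (44.7% to 81.7%, n = 26) and 58.3% (51.3% to 78.3%, n = 17), and the ranges overlapped widely. MED13L, which fell, had a promoter of 78.3% GC, and POLR1A, which rose, had the lowest, 44.7%. Spearman's rho with the log2 fold change was 0.85 for the last codon base (n = 56) and 0.15 for the promoter (n = 43). Members that rose were also more abundant, with a median of 47.2 RPKM against 8.24 RPKM. Their transcripts were shorter, with a median of 2332 against 3329 bases, beside 3252 bases for all tested genes. Abundance and the composition of codons, 3′ UTRs and promoters were not compared by direction with the rest of the table. The rho with RPKM was 0.58, and with offsets -0.03.

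**Figure D5:**
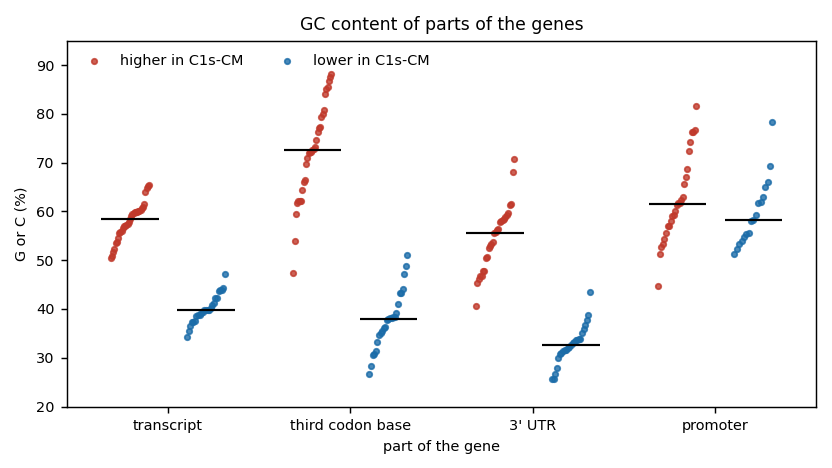
Share of G or C in the transcript, at the last base of codons, in the 3′ UTR and in the promoter, with 1 point per gene, red for genes higher and blue for genes lower in C1s-CM, and bars at the medians. The colours separate in the transcript (50.5% or more against 47.1% or less) and overlap in the promoter (medians 61.5% and 58.3%).

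The promoters of the gene with the best measured rise and of the gene with the best measured fall, ELOB and GTF2A1, show how such windows look. They are from RefSeq on GRCh38.p14, 5′ to 3′ on the gene's strand, at chr16:2777231-2777530 (minus strand, 76.3% GC) and chr14:81221341-81221640 (minus strand, 55.3% GC). Capitals mark GGGCGG (the GC box), CCGGAAG (an ETS core) and CCAAT, on either strand.
ELOB: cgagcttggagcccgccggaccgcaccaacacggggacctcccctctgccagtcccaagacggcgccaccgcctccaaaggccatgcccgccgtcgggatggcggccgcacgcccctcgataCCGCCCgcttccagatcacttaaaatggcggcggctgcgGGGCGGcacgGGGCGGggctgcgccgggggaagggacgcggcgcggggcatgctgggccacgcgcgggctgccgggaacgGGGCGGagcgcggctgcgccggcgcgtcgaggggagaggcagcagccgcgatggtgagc
GTF2A1: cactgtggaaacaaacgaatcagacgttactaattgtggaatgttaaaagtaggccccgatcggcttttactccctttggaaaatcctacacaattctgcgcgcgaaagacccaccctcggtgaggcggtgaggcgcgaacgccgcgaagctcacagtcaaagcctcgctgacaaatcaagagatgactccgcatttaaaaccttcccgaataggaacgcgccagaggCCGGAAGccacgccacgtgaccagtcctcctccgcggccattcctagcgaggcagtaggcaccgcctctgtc

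Over the 43 members with a promoter sequence used here, GGGCGG on either strand was in 31 (72.1%, beside 44.6% of 27305 promoters of the same length). It was in 20 of 26 genes that rose and in 11 of 17 that fell. CCGGAAG was in 16 members (37.2%, beside 10.7%), 8 of 26 that rose and 8 of 17 that fell. CCAAT was in 13 (30.2%, beside 35.7%), and TATAAA in 3 (6.98%, beside 11.95%), namely MED16, GTF3C3 and POLR2M. These are matches of letters, with no measure of binding. The 27305 promoters include those of genes without a row here, so the shares do not compare the members with genes expressed in these cells.

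Partners of these complexes whose symbols the rule leaves out behaved alike in number. Of 49 listed genes 24 have a row, 14 higher and 10 lower in edgeR's test, beside 50.9% and 48.5% of all tested genes. The median log2 fold change of the 24 genes was 0.11 beside 0.08 for all genes. With offsets 4 were higher and 3 lower, beside 14.9% and 10.7% of all tested genes. ERCC2, a helicase of TFIIH, rose by 0.29 ± 0.03 (SE, adjusted p = 1.83e-09, edgeR), and TADA3, a SAGA subunit, by 0.29 ± 0.03. DR1, a repressor that binds the TATA-binding protein, fell by 0.40 ± 0.06, and BTAF1, which removes the TATA-binding protein from DNA, by 0.53 ± 0.08. With offsets ERCC2 was still called (0.08), TADA3 (0.06) and BTAF1 (-0.05) were not, and DR1 turned to 0.18 and passed the test. The RNA polymerase I genes listed under older symbols, ZNRD1 (POLR1H) and TWISTNB (POLR1F), went in opposite directions, ZNRD1 by 0.34 ± 0.06 and TWISTNB by -0.62 ± 0.13, and with offsets ZNRD1 was still called (0.22) and TWISTNB was not (-0.09).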

How the data were processed

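What the authors deposited is 1 table of raw counts (whole numbers per gene, not normalized) in which each of the 5117 genes also has columns, per the file headers, for the authors' log2 fold change and for its p-value before and after adjustment. These were used only to check directions, and the largest adjusted p-value is 0.05. Per the submitters' processing notes, the tools were FastQC 0.11.9, Trim Galore 0.6.7, HISAT2 2.2.1 and DESeq2 1.40.2, with GRCh38. No source used here names the read counter, its annotation or its strand setting.

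The comparison was fitted with edgeR 4.0.16 (R 4.3.3): filterByExpr (1 gene removed), TMM scaling, and a two-sided quasi-likelihood test on treatment alone, with Benjamini-Hochberg adjustment over 5116 genes at a threshold of 0.05. TMM assumes that most genes do not change, an assumption that genes selected by a test may not meet. The SE of a log2 fold change is its size divided by the root of F. Alternatives were library totals, DESeq2 1.42.0, other filters, a replicate block, each library left out, and loess offsets (span 0.3) for GC content and log2 length of a representative or the longest GENCODE 29 transcript (5113 identifiers matched). RPKM used the representative transcript's length, or for POLR2A the longest. Genes given with all 6 values are up to 4 per group and direction with the smallest p, and TAF9, GTF2F1, GTF2F2 and POLR2J4, added after their values were seen. All members are named, except 1 gene that is not reported here and counts only in the totals. Members and lists were chosen with earlier results of these data known. Steps were tested on simulated counts.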

Additional observations from a re-analysis of the deposited data

How the results depend on the processing

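Scaling with DESeq2's size factors, no filter and the replicate block each left the calls of all 57 named genes on the same side and in the same direction, as did a filter of 50 counts in 3 libraries, under which POLR2J4 was not tested. DESeq2's Wald test lost POLR2J and POLR2C. Leaving out C1s-CM replicate 1 lost POLR2J and MED9, C1s-CM replicate 2 POLR2C and control CM replicate 2 MED9. Over the fits without 1 library, 31 to 33 of the 58 genes were called higher and 25 lower, polymerase subunits 12 to 13 and 4, Mediator 8 to 9 and 4, TFIID 1 and 5, other factors 7 and 7, Integrator 3 and 5, and 2515 to 2569 and 2481 of all genes. Library numbers did not pair the libraries (correlations of same-numbered deviations -0.14, -0.092 and 0.001), and with the replicate block 2573 genes were called higher and 2481 lower and no member's call changed.

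With library totals 1336 genes, 16 members, 6 polymerase, 3 Mediator and 4 other-factor genes were higher, GTF2F1 turned to -0.027 and POLR2C to -0.029, and the median of all genes was -0.045. A true difference that followed GC content or length would be taken out by the offsets too. Counts higher and lower with offsets, with longest-transcript offsets and with the replicate block plus offsets were 762 and 546, 805 and 603, and 715 and 518 for all genes, and 10 and 3, 11 and 4, and 10 and 3 for members. For polymerase subunits they were 6 and 2, 5 and 1, and 6 and 2, for Mediator 2 and 0, 3 and 0, and 2 and 0, and for other factors 2 and 1, 3 and 1, and 2 and 1. For both TFIID and Integrator they were 0 and 0, 0 and 1, and 0 and 0. Both transcripts gave 44 of the 58 genes the same direction, and 8 genes were called higher and 2 lower with both. Medians turned to -0.0014, -0.0045 and -0.0012 for all genes, to 0.064, 0.021 and 0.064 for other factors, and for TFIID to 0.0073 with offsets and 0.0075 with the block as well.

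Log2 fold changes that turned with offsets were GTF2F1 -0.10, GTF2F2 0.062, GTF2H3 0.066, GTF3C3 0.11, GTF3C5 -0.029, INTS1 -0.0051, INTS11 -0.029, INTS2 0.028, MED13 0.0044, MED13L 0.026, MED14 0.25, MED15 -0.081, MED22 -0.036, MED25 -0.052, POLR1D -0.11, POLR2B 0.18, POLR2H -0.096, POLR2J -0.093, POLR2K 0.18, POLR2M 0.16, SUPT16H 0.039, TAF1B 0.068, TAF2 0.16, TAF6L -0.070, TAF7 0.013, TAF9 0.057. With longest-transcript offsets they were GTF2F1 -0.13, GTF2H3 0.039, GTF3C3 0.080, GTF3C5 -0.057, INTS1 -0.014, INTS11 -0.054, INTS5 -0.0018, INTS6 0.13, MED13 0.0033, MED13L 0.023, MED14 0.24, MED15 -0.092, MED27 -0.0078, POLR2B 0.12, POLR2C -0.0033, POLR2H -0.12, POLR2J -0.044, POLR2K 0.14, POLR2M 0.14, SUPT16H 0.0023, TAF1D 0.15, TAF2 0.13, TAF6 -0.023, TAF6L -0.084. With the replicate block and offsets they were GTF2F1 -0.10, GTF2F2 0.063, GTF2H3 0.065, GTF3C3 0.10, GTF3C5 -0.029, INTS1 -0.0052, INTS11 -0.029, INTS2 0.025, MED13 0.0040, MED13L 0.025, MED14 0.25, MED15 -0.080, MED22 -0.036, MED25 -0.051, POLR1D -0.11, POLR2B 0.18, POLR2H -0.097, POLR2J -0.093, POLR2K 0.18, POLR2M 0.16, SUPT16H 0.039, TAF1B 0.070, TAF2 0.16, TAF6L -0.071, TAF7 0.014, TAF9 0.057. The cause was not tested.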

Other observations

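Elongation factors outside the symbol rule divided in direction. Of 40 listed genes 22 have a row, 9 higher and 13 lower in edgeR's quasi-likelihood test, beside 50.9% and 48.5% of all tested genes. The median log2 fold change of the 22 genes was -0.34 beside 0.08 for all tested genes, of which 99.4% were called. With GC and length offsets the median of the 22 genes was -0.04. Their median transcript GC content was 45.1%, beside 49.3% for all tested genes. AFF4, a scaffold of the super elongation complex, fell by 0.49 ± 0.04 (SE, adjusted p = 1.17e-10), and TCEA1, which restarts stalled RNA polymerase II, by 0.38 ± 0.04. CCNT2, a cyclin partner of CDK9, had -0.76 ± 0.10. Higher were NELFB, a subunit of the pausing factor NELF, by 0.22 ± 0.03, and TCEA2, a paralog of TCEA1, by 0.26 ± 0.04. With GC and length offsets AFF4 was at -0.01, TCEA1 at 0.03, CCNT2 at -0.16, NELFB at -0.07 and TCEA2 at -0.05. With these offsets 2 listed genes were called higher and 4 lower, beside 14.9% and 10.7% of all tested genes. CDC73, a subunit of the PAF complex named after its values were seen, fell by 0.44 ± 0.07 and was called higher with offsets (0.20, adjusted p = 0.0141, edgeR).

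Of 6 listed genes of mitochondrial transcription, 2 have a row. POLRMT, the mitochondrial RNA polymerase, was higher by 0.32 ± 0.04 (SE) and TFAM, which packages mitochondrial DNA and starts its transcription, lower by 0.43 ± 0.05. With offsets neither passed the threshold (0.03 and 0.11).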
